A study of Mus musculus with 9 samples.

Results

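Small intestine epithelial cells of HIF2α∆IEC mice were compared directly with those of HIF1α∆IEC mice, without reference to controls, to find the genes that separate the loss of the 2 HIF isoforms. The members are the 3 libraries labelled HIF2α∆IEC and the 3 labelled HIF1α∆IEC, 6 of the 9 libraries of the series, and they were chosen by label. The other 3 libraries, littermate controls with floxed (F/F) HIFα, did not enter the main fit and are given as levels. They also entered alternative fits, which are named as holding the controls or all 9 libraries. The label of the controls does not say which of the 2 HIFα genes is floxed. All 9 libraries are total RNA of small intestine epithelial cells, and the treatment label calls the mice naïve, while the extraction text names a collagen-induced arthritis model. In both ∆IEC genotypes the loss is restricted to intestinal epithelial cells (∆IEC). The labels give neither the Cre driver, the deleted exons, the age nor the part of the small intestine. Nor is it stated that the libraries are from different animals, so p-values reflect sample-to-sample spread only, some of which may be technical.

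HIF1α (Hif1a) and HIF2α (Epas1) are oxygen-labile transcription factor subunits. Prolyl hydroxylases mark them for VHL-dependent degradation when oxygen is plentiful, and under hypoxia they pair with ARNT and bind hypoxia response elements with the core ACGTG. They share many targets, but glycolytic genes are known mainly as HIF1α targets and, in the intestine, genes of iron absorption mainly as HIF2α targets. The epithelium sampled holds absorptive enterocytes with secretory cells (goblet, Paneth, tuft and enteroendocrine) and the lymphocytes that lie between them.

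Libraries held 31576340, 34467073 and 40391453 counts in HIF2α∆IEC, against 28704346, 20959964 and 29931812 in HIF1α∆IEC, and 15135 genes were tested. Levels are CPM, counts scaled to library size with TMM factors, and every fold change is HIF2α∆IEC over HIF1α∆IEC. The epithelial genes Epcam, Vil1, Krt8 and Cdh1 were at 637 CPM or more in all 9 libraries. HIF2α∆IEC replicate 1 and HIF1α∆IEC replicate 2 stood apart from the others. Their share of mitochondrial transcripts was 10.8% and 12.2%, against 5.08% in the lowest and 6.03% in the highest of the other 4 ∆IEC libraries. The first principal component, with 43% of the variance, separated both from the rest, and the second, with 27.3%, separated them from each other. Only on the third, with 16%, did the genotypes lie apart, at 2.21, 19.2 and 43.6 in HIF2α∆IEC and at -33.3, -0.159 and -31.5 in HIF1α∆IEC. Xist and Y-linked genes gave 1 male and 2 females in each ∆IEC group and 3 males among the controls. Results are therefore given with and without the 2 libraries. Without them HIF2α∆IEC is 2 females and HIF1α∆IEC 1 male and 1 female.

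**Figure D1:**
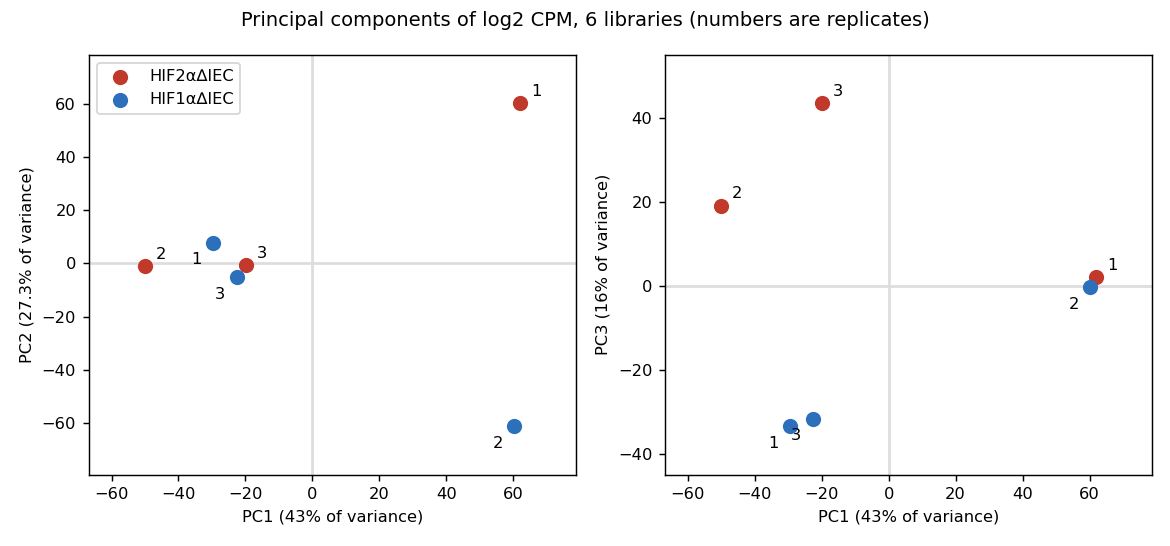
Principal components of log2 CPM over the 15135 tested genes, with HIF2α∆IEC in red and HIF1α∆IEC in blue and numbers for replicates. The left panel shows PC1 against PC2, where HIF2α∆IEC replicate 1 and HIF1α∆IEC replicate 2 lie apart from the other 4 libraries, and the right panel PC1 against PC3, the component on which the genotypes lie on different sides.

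The targeted genes were read first. Hif1a had 34.4, 14.8 and 22.1 CPM in HIF2α∆IEC, against 22.2, 63.1 and 17.6 in HIF1α∆IEC and 15.7, 19.6 and 20.8 in the controls. Epas1 had 35.6, 10.95 and 11.4 CPM in HIF2α∆IEC, against 29.3, 18.1 and 21.9 in HIF1α∆IEC and 32.2, 14.3 and 20.8 in the controls. The groups overlapped for both genes, and the highest value of each came from 1 of the 2 libraries that stood apart. The log2 fold change was -0.53 ± 0.51 for Hif1a (SE; edgeR adjusted p = 0.999; -0.055 without both libraries) and -0.26 ± 0.48 for Epas1 (edgeR adjusted p = 0.999; -1.14 without both libraries, and -1.04 without HIF2α∆IEC replicate 1 alone). Arnt, their shared partner, was at 0.15 ± 0.27. Reads of exons that were not deleted are still counted, so these levels are a weak check and every direction below rests on the labels.

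No gene passed the edgeR quasi-likelihood test after adjustment: 0 of 15135 were called (0%), with a smallest adjusted p of 0.393. An unadjusted p under 0.05 was reached by 792 genes (5.23%; 756.75 are expected by chance), 258 of them higher in HIF2α∆IEC (1.7%) and 534 lower (3.53%). The 3 libraries of each genotype did not overlap for 1581 genes (10.4%), of which 653 were higher in HIF2α∆IEC (4.31%) and 928 lower (6.13%). With so few libraries, groups of some genes fall apart by chance order alone, so a lack of overlap is a description and not a test. DESeq2 called 29 genes (0.193%; 13 higher, 16 lower) and limma-voom 0. Without the 2 libraries that stood apart, edgeR called 124 genes (0.812%), 35 higher (0.229%) and 89 lower (0.583%) in HIF2α∆IEC. With the controls added to that fit, 7 libraries in all, edgeR called 0 of 15646 genes (0%; 1519 at an unadjusted p under 0.05, 9.71%; smallest adjusted p = 0.0525). The calls below that leave out the 2 libraries thus hold in the fit of 4 libraries and not in the fit of 7. All 124 genes kept their direction in the fit of 7, 122 of them at an unadjusted edgeR p under 0.05. Both fits compare the same 4 ∆IEC libraries, so this is no independent support. The naming rule gave the 24 genes of smallest p, 12 in each direction, and 8 further loci or abundant genes. All kept their direction under each of the 21 other settings that tested them. They were picked for a small p and no overlap in the same libraries, so their kept direction was largely fixed by the choice. The adjusted p of each of these 32 genes reached 1.0 under at least 1 setting. What separates the genotypes is therefore described by values and their spread, and no gene below passed the main edgeR test over all genes. Calls by DESeq2 and by edgeR without the 2 libraries are given below for some genes only. DESeq2 also called, among others, Defa-rs7, Ces1f, Gsta3, Akr1b8, Gsdmcl2, Ces1g, St3gal4, Ang4 and Clps.

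**Figure D2:**
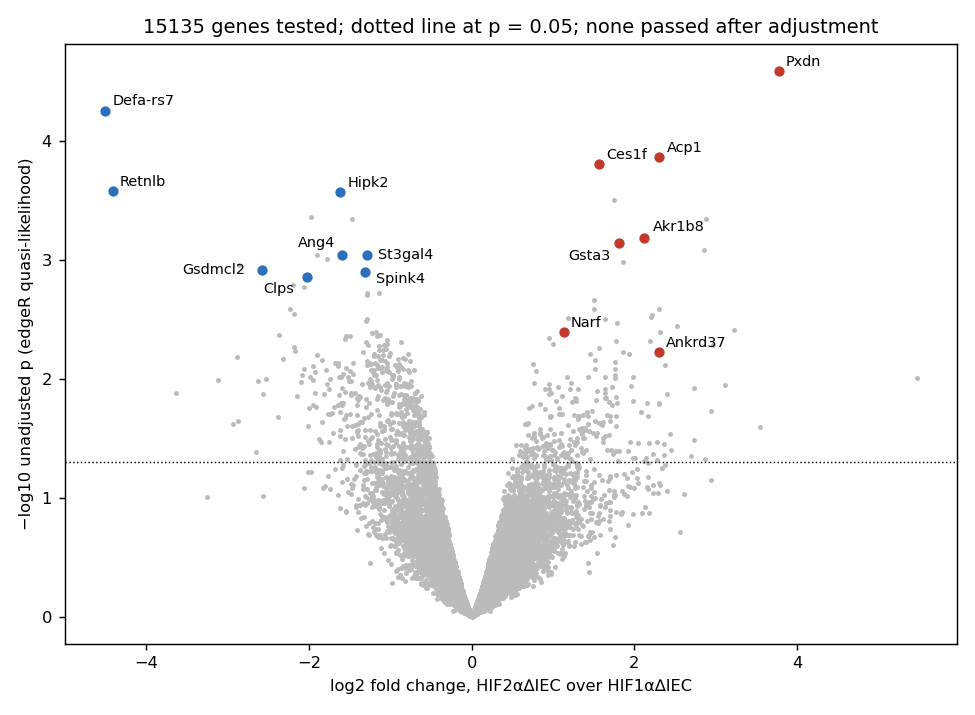
Log2 fold change of HIF2α∆IEC over HIF1α∆IEC (horizontal) against −log10 of the unadjusted edgeR p (vertical) for 15135 genes, with red for named genes higher in HIF2α∆IEC and blue for named genes lower. Pxdn, at 3.77, has the smallest p, and Defa-rs7 and Retnlb lie farthest to the left, at -4.50 and -4.41.

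The hypoxia genes Narf and Ankrd37 were about level with the controls in HIF2α∆IEC and below them in HIF1α∆IEC. Narf, a gene induced by hypoxia whose protein binds prelamin A, had 53.7, 32.0 and 36.5 CPM in HIF2α∆IEC, against 21.7, 17.7 and 16.3 in HIF1α∆IEC and 36.5, 39.3 and 43.8 in the controls. Ankrd37, a small ankyrin-repeat protein gene known as a HIF1α target, had 3.91, 2.60 and 1.45 CPM in HIF2α∆IEC, against 0.39, 0.21 and 0.98 in HIF1α∆IEC and 4.75, 2.40 and 1.76 in the controls. For each gene all 3 HIF1α∆IEC libraries lay below all other libraries. The log2 fold change was 1.13 ± 0.30 for Narf (edgeR unadjusted p = 0.00405, adjusted p = 0.826; 0.90 without the 2 libraries that stood apart) and 2.30 ± 0.65 for Ankrd37 (edgeR unadjusted p = 0.00597, adjusted p = 0.826; 1.60 without them). Their promoters, read from RefSeq on build GRCm38.p6 as the 300 bases from 250 before to 50 after the gene start, are shown because they differ in the HIF core motif. Capitals mark ACGTG or its reverse complement CACGT. The Ankrd37 window (chr8:45999801-46000100, minus strand) holds the motif at 2 places, and the Narf window (chr11:121236986-121237285, plus strand) holds none.
Ankrd37: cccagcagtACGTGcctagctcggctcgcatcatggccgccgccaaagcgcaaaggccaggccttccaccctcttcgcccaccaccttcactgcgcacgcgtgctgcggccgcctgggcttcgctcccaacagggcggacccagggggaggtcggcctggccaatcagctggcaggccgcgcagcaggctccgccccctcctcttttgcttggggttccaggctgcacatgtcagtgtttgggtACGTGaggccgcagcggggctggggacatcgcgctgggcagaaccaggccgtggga
Narf: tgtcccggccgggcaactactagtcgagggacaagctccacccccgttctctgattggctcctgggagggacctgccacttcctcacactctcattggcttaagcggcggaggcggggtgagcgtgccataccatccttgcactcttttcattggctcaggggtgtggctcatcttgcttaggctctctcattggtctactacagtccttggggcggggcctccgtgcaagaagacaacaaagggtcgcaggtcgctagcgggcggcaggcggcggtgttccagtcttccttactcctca
The motif was in 19.6% of all 32851 promoters of the table and in 27 of 52 promoters (51.9%) of the hypoxia list. A match is a description of letters, not a binding site.

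The rest of the hypoxia list did not separate the genotypes. Of 43 tested targets, 25 were higher in HIF2α∆IEC and 18 lower, with a median log2 fold change of 0.024, against 0.014 over all genes tested. An unadjusted edgeR p under 0.05 was reached by 3 members, all higher in HIF2α∆IEC, where 1.7% of all genes were higher at that p. These were Narf, Ankrd37 and Angptl4, a secreted inhibitor of lipoprotein lipase. Angptl4 had 24.8, 19.3 and 11.35 CPM in HIF2α∆IEC, against 7.80, 7.15 and 11.38 in HIF1α∆IEC and 7.40, 8.06 and 8.16 in the controls, so that here the HIF2α∆IEC libraries lay above all controls. Its groups overlapped by a single library (1.07 ± 0.38, edgeR adjusted p = 0.841). Vegfa, the vascular growth factor, was at 0.57 ± 0.41 on the log2 scale (0.073 without the 2 libraries), Pdk1, which restrains pyruvate oxidation, at 0.38 ± 0.32, and Slc2a1, a glucose transporter, at -0.23 ± 0.33, all with overlapping groups. Among 29 glycolysis, glycogen and lactate genes, 16 were higher and 13 lower in HIF2α∆IEC (median 0.033, or -0.18 without the 2 libraries that stood apart), and 0 reached an unadjusted p under 0.05. Pgk1, a glycolytic kinase gene, had 287, 172 and 279 CPM in HIF2α∆IEC, against 170, 195 and 152 in HIF1α∆IEC. Ldha, lactate dehydrogenase, had 1625, 1810 and 1790 CPM in HIF2α∆IEC, against 2588, 1227 and 2215 in HIF1α∆IEC.

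The genes of iron absorption did not separate the genotypes either. Of 25 tested, 13 were higher in HIF2α∆IEC and 12 lower, the median was 0.011, and 0 reached an unadjusted p under 0.05. Slc11a2, the apical iron importer, had 79.8, 76.8 and 78.0 CPM in HIF2α∆IEC, against 94.0, 50.2 and 88.6 in HIF1α∆IEC. Cybrd1, the ferric reductase, had 3.41, 2.07 and 3.61 CPM in HIF2α∆IEC, against 6.09, 2.85 and 4.44 in HIF1α∆IEC (-0.56 ± 0.44 on the log2 scale). Slc40a1, the basolateral iron exporter ferroportin, had 38.8, 4.97 and 6.08 CPM in HIF2α∆IEC, against 14.9, 25.5 and 11.2 in HIF1α∆IEC. The first HIF2α∆IEC library set its fold change, which was -0.049 with that library and -1.64 without it. The metallothionein genes Mt1 and Mt2, of small zinc-binding proteins, did not overlap between the genotypes, whereas Mt3, at 1.92 CPM or less, did (-0.78 ± 0.52). Mt1 had 883, 566 and 568 CPM in HIF2α∆IEC, against 402, 437 and 369 in HIF1α∆IEC (0.74 ± 0.25, edgeR adjusted p = 0.831). Mt2 had 108, 42.8 and 73.9 CPM in HIF2α∆IEC, against 36.9, 38.6 and 24.6 in HIF1α∆IEC (1.17 ± 0.36, edgeR adjusted p = 0.826). The 3 controls lay below both genotypes for Mt1, at 178 to 261.5 CPM, and Mt2 in the controls was at 61.2 to 102 CPM. The 19 genes of the list with zinc and copper transporters were 11 higher and 8 lower, with a median of 0.11.

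Pxdn and Acp1 were the 2 genes of smallest p among those higher in HIF2α∆IEC. Pxdn (ENSMUSG00000020674, mm10 chromosome 12, 29938036 to 30017658) encodes peroxidasin, which cross-links collagen IV of basement membranes. It had 8.47, 20.7 and 18.0 CPM in HIF2α∆IEC, against 0.89, 0.93 and 1.61 in HIF1α∆IEC and 0.38, 0.96 and 1.39 in the controls. Acp1 (ENSMUSG00000044573, chromosome 12, 30893326 to 30911612) encodes the low molecular weight protein tyrosine phosphatase. It had 45.0, 35.0 and 48.0 CPM in HIF2α∆IEC, against 5.95, 13.1 and 6.84 in HIF1α∆IEC and 6.63, 13.4 and 13.1 in the controls. All 3 HIF2α∆IEC libraries lay above all 6 other libraries for both genes. Pxdn was 13.7-fold higher (3.77 ± 0.49 on the log2 scale, edgeR unadjusted p = 2.6e-05, adjusted p = 0.393) and Acp1 4.95-fold higher (2.31 ± 0.37, edgeR adjusted p = 0.595). DESeq2 called both (adjusted p = 9.66e-12 and 2.17e-05; up to 1.0 for each under other settings), and so did edgeR without the 2 libraries that stood apart, at log2 fold changes of 4.0 and 2.75 (adjusted p = 0.000113 and 0.000519; 0.0525 for each with the controls in that fit).

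The 2 genes lie 875.7 kb apart on the same chromosome. Within 1 Mb on either side of them 13 genes were tested, and 9 had a positive fold change, against 51.6% of all genes. The 9 include Pxdn and Acp1, around which the window was set. Of the other 11, Gpr22, an orphan receptor gene at under 1 CPM, was at 2.96 ± 0.81 and Lamb1, a laminin chain of the basement membrane, at -1.41 ± 0.47, both without overlap of the groups (edgeR adjusted p = 0.826 each). The groups did not overlap either for Dus4l, a tRNA-modifying enzyme gene, at 0.75 ± 0.43 (edgeR adjusted p = 0.999). Over all genes tested, the groups did not overlap for 10.4%. Sh3yl1, which starts next to Acp1, was at 0.15 ± 0.32 and Tmem18, between Pxdn and Acp1, at 0.76 ± 0.35. The promoters of Pxdn (chr12:29937786-29938085, plus strand) and Acp1 (chr12:30911563-30911862, minus strand) are shown because these genes lead the comparison and both windows hold the HIF core motif, in capitals, at 1 and 2 places. Among the 10 promoters of the 12 leading genes higher in HIF2α∆IEC that are in the table, these were the only 2 with the motif (20%, against 19.6% of all promoters), and among the 7 promoters found for 6 of the 12 leading lower genes 1 held it.
Pxdn: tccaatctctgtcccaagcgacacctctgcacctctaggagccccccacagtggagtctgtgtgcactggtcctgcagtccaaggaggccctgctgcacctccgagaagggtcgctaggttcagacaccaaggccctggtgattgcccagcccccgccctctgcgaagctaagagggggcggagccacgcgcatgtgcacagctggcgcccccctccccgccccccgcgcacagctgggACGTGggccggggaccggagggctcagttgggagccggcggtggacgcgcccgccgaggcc
Acp1: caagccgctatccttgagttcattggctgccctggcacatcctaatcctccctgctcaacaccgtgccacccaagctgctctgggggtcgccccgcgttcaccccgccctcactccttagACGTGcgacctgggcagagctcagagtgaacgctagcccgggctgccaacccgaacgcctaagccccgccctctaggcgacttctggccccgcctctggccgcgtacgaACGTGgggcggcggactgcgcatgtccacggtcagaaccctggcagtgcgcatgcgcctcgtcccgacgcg

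**Figure D3:**
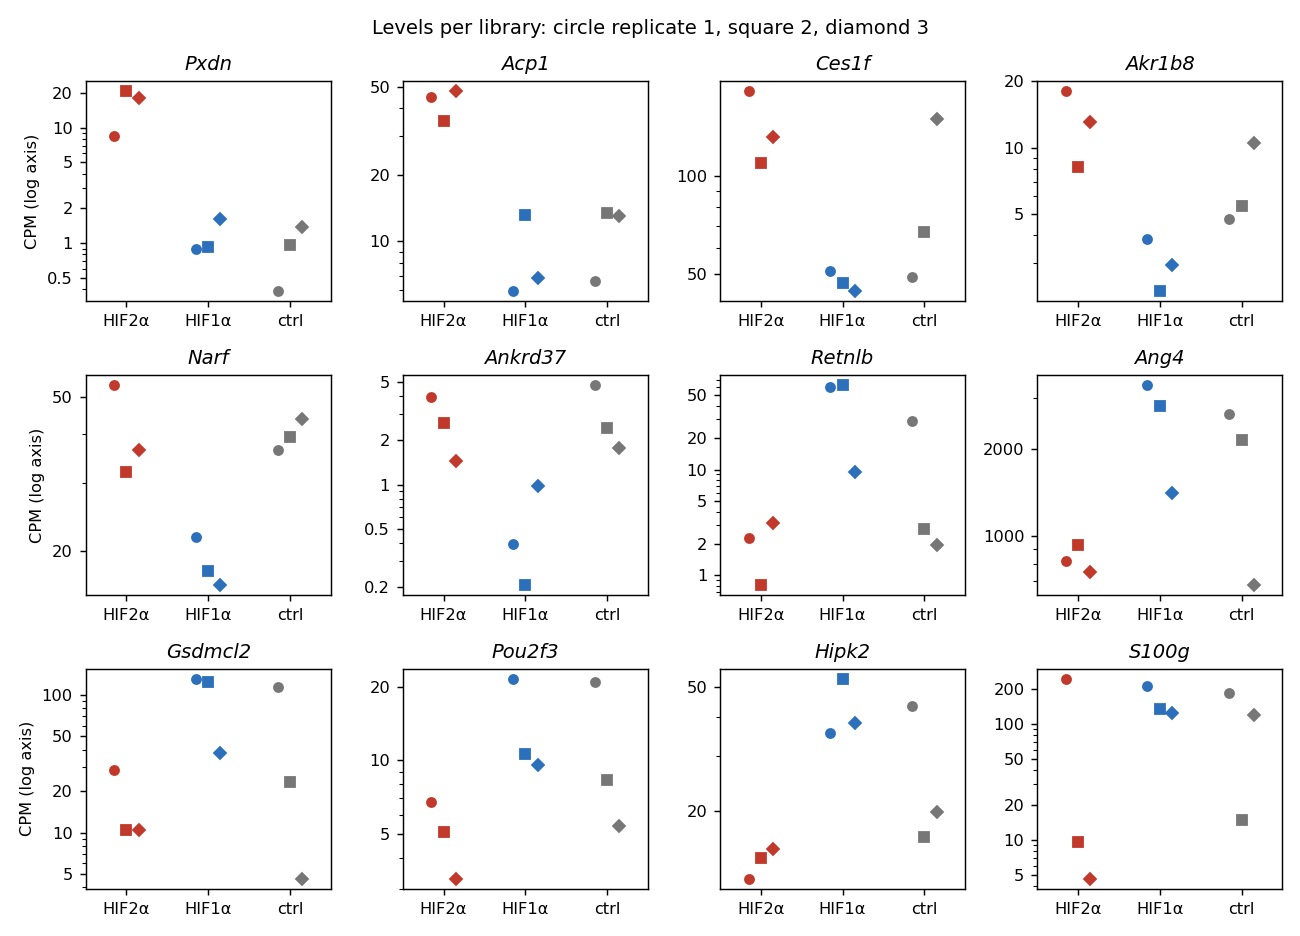
CPM per library on a log axis for 12 genes, with HIF2α∆IEC at left (red), HIF1α∆IEC in the middle (blue) and controls at right (grey); symbols mark replicates. HIF2α∆IEC stands above all other libraries for Pxdn and Acp1, HIF1α∆IEC stands below all others for Narf and Ankrd37, and for Retnlb, Ang4 and Gsdmcl2 the controls reach into both groups.

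Ces1f and Ces1g, of the xenobiotic metabolism list, were among the 12 leading genes higher in HIF2α∆IEC, and so were the enzyme genes Akr1b8, Gsta3 and Akr1c13, which are not on the list. Ces1f, a carboxylesterase gene, had 181, 109 and 131 CPM in HIF2α∆IEC, against 51.2, 47.0 and 44.2 in HIF1α∆IEC (1.57 ± 0.26, edgeR adjusted p = 0.595), and 49.0, 67.4 and 149 in the controls. Akr1b8, an aldo-keto reductase, had 18.0, 8.18 and 13.1 CPM in HIF2α∆IEC, against 3.85, 2.23 and 2.93 in HIF1α∆IEC (2.12 ± 0.42, edgeR adjusted p = 0.826). The glutathione transferase Gsta3 was at 1.81 ± 0.36, the carboxylesterase Ces1g at 1.5 ± 0.36 and the aldo-keto reductase Akr1c13 at 1.51 ± 0.37, again with no overlap of the groups. Of 45 xenobiotic metabolism genes tested, 41 were higher in HIF2α∆IEC, against 51.6% of all genes, with 8 higher at an unadjusted p under 0.05 (1.7% of all genes) and a median of 0.68. The first HIF2α∆IEC library carried much of this. Its mean log2 level over the list lay 1.19 above the mean of the 6 libraries, whereas the other 2 lay at -0.213 and -0.103, and HIF1α∆IEC at 0.042, -0.274 and -0.638. The median was 0.11 without that library and 0.13 without both, with 26 members higher and 18 lower. Cyp3a11, a cytochrome P450 gene of drug metabolism, was an example, at 546, 28.7 and 61.7 CPM in HIF2α∆IEC, against 50.3, 47.0 and 20.04 in HIF1α∆IEC. Without the 2 libraries 2 members of the list were called higher in HIF2α∆IEC and 1 lower, against 0.229% and 0.583% of all genes. Ces1f was at 1.38 and Aldh1a1, a retinaldehyde dehydrogenase gene, at 1.82 (edgeR adjusted p = 0.00958 and 0.0186), and Gsta1, a glutathione transferase gene, at -1.40 (edgeR adjusted p = 0.0463). Outside the list, Akr1b8, Gsta3 and Akr1c13 were called at 1.71, 1.82 and 1.24 (edgeR adjusted p = 0.0383, 0.0296 and 0.0296). None of these calls held with the controls in the fit, where edgeR called 0 genes. Carboxylesterase, Akr1c and Gsta genes have close copies, among which reads may have been split.

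Lipid genes had small positive medians in HIF2α∆IEC, and 1 of the 3 lists turned without the 2 libraries. Of 32 targets of PPARα, the fatty acid sensor, 24 were higher and 8 lower, where 51.6% of all genes were higher (median 0.32; 0.20 without the 2 libraries). Dietary lipid absorption genes were 17 higher and 8 lower (median 0.31), but 10 higher and 15 lower without the 2 libraries (median -0.17). Hadhb, of mitochondrial β-oxidation, had 188, 90.5 and 131 CPM in HIF2α∆IEC, against 82.9, 73.0 and 55.9 in HIF1α∆IEC (0.95 ± 0.31). Ppara itself was lower, with 7.42, 3.91 and 5.02 CPM in HIF2α∆IEC, against 8.97, 12.3 and 9.88 in HIF1α∆IEC (-0.93 ± 0.37). Pdk4, a pyruvate dehydrogenase kinase, was at 2.40 ± 0.79, or 1.15 without the first HIF2α∆IEC library. Of 32 genes of cholesterol and fatty acid synthesis, 25 were higher and 7 lower (median 0.24; 26, 6 and 0.37 without the 2 libraries). The sterol synthesis genes Cyp51 and Msmo1 were each at 0.77 ± 0.30 on the log2 scale. Reg3a, an antibacterial lectin, Nomo1, of an endoplasmic reticulum membrane complex, and Slc6a20b, of an amino acid transporter family, completed the leading higher genes, with Mir5125, a locus inside the Srrm2 gene. Nomo1 had 153.5, 276 and 231 CPM in HIF2α∆IEC, against 79.9, 127 and 83.9 in HIF1α∆IEC (1.19 ± 0.30). Reg3a had 137, 233 and 152 CPM in HIF2α∆IEC, against 93.7, 70.6 and 96.6 in HIF1α∆IEC (1.00 ± 0.27). The abundant nuclear RNA Neat1, the scaffold of paraspeckles, was at 1.52 ± 0.45, or 0.90 without HIF2α∆IEC replicate 1 and 0.73 without both libraries. Srrm2, of nuclear speckles, was at 0.79 ± 0.24.

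Products of secretory cells were among the leading genes lower in HIF2α∆IEC. In these bulk libraries fewer cells of a type and less RNA per cell cannot be told apart. Retnlb, the goblet cell protein RELMβ, had 2.23, 0.81 and 3.15 CPM in HIF2α∆IEC, against 60.0, 63.0 and 9.57 in HIF1α∆IEC and 28.4, 2.77 and 1.95 in the controls. The genotypes did not overlap and Retnlb was 21.3-fold lower in HIF2α∆IEC (-4.41 ± 0.77, edgeR unadjusted p = 0.000264, adjusted p = 0.678; DESeq2 adjusted p = 3.54e-07). Ang4, an antimicrobial ribonuclease of Paneth and goblet cells, had 819, 930 and 752 CPM in HIF2α∆IEC, against 3329, 2822 and 1411 in HIF1α∆IEC and 2629, 2149 and 675 in the controls (-1.60 ± 0.33, edgeR adjusted p = 0.826). Defa-rs7, a defensin-related gene, had 12.9, 32.6 and 26.0 CPM in HIF2α∆IEC, against 149.5, 669 and 799 in HIF1α∆IEC. Its controls, at 73.3, 798 and 13.9 CPM, spanned nearly the whole range. Defa-rs7 was at -4.50 ± 0.64 (edgeR adjusted p = 0.423), was called without HIF1α∆IEC replicate 1 and with the 2 libraries left out (adjusted p = 0.463 with the controls in that fit), and belongs to a family of near-identical genes among which reads may have been split. Spink4, a protease inhibitor of goblet cells, had 496, 740 and 569 CPM in HIF2α∆IEC, against 1549, 1869 and 1064 in HIF1α∆IEC (-1.31 ± 0.29). Clps, the lipase cofactor colipase, had 72.5, 200 and 96.8 CPM in HIF2α∆IEC, against 640, 593 and 270 in HIF1α∆IEC (-2.03 ± 0.45). Gsdmcl2, a transcribed pseudogene of the gasdermin C family, had 28.4, 10.5 and 10.5 CPM in HIF2α∆IEC, against 132, 124.5 and 37.7 in HIF1α∆IEC (-2.57 ± 0.56).

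The Paneth and goblet lists held members in both directions. Of 19 Paneth markers 17 were lower in HIF2α∆IEC (median -0.61), but without the 2 libraries that stood apart 9 were higher and 10 lower (median -0.0043). The summed Paneth level was 11010, 32870 and 24270 CPM in HIF2α∆IEC, against 32110, 30810 and 31020 in HIF1α∆IEC, so the first HIF2α∆IEC library alone stood far below the rest. Lyz1, the Paneth lysozyme, was called higher in HIF2α∆IEC without the 2 libraries (0.80, edgeR adjusted p = 0.0323), in the direction opposite to Ang4. Of 22 goblet markers 16 were lower and 6 higher (median -0.24; -0.26 without the 2 libraries). The summed goblet level was not lower and overlapped, at 14930, 13530 and 12190 CPM in HIF2α∆IEC, against 12790, 10630 and 12890 in HIF1α∆IEC. Agr2, a disulfide isomerase of mucus secretion, was called higher without the 2 libraries (1.00, edgeR adjusted p = 0.0405), while Retnlb was called lower (-4.06, edgeR adjusted p = 0.0217). None of the 3 was called with the controls in the fit. Lyz1 and Agr2 were named after their values were seen.

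Tuft cell genes were lower in HIF2α∆IEC for every member tested, 26 of 26, where 48.4% of all genes were lower. The median was -1.01, and 13 members had an unadjusted p under 0.05 (3.53% of all genes were lower at that p). Tuft cells are chemosensory cells that secrete IL-25 and eicosanoids. Pou2f3, their lineage-determining factor, had 6.77, 5.11 and 3.29 CPM in HIF2α∆IEC, against 21.6, 10.6 and 9.60 in HIF1α∆IEC and 20.9, 8.34 and 5.39 in the controls (-1.46 ± 0.44, edgeR adjusted p = 0.826). Ly6g6f had 3.60, 1.06 and 0.93 CPM in HIF2α∆IEC, against 11.3, 9.18 and 4.75 in HIF1α∆IEC (-2.17 ± 0.61). Gng13, a G protein subunit of taste signalling, had 0.59, 0.36 and 0.14 CPM in HIF2α∆IEC, against 1.60, 1.30 and 1.29 in HIF1α∆IEC (-1.95 ± 0.58). Alox5ap, the activator of leukotriene synthesis, had 11.2, 6.12 and 4.59 CPM in HIF2α∆IEC, against 31.4, 14.8 and 14.6 in HIF1α∆IEC (-1.48 ± 0.46). Groups did not overlap for these 4 genes and for 9 of the 26 in all, where 6.13% of all genes were lower without overlap. Leaving out single libraries moved the list's median between -1.71 and -0.66.

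Without the 2 libraries that stood apart, 13 of the 26 tuft genes fell in HIF2α∆IEC (edgeR adjusted p under 0.05 each, against 0.583% of all genes called lower), 0 rose and the median was -1.71. With the controls in the fit, edgeR called 0 of the 26, with a smallest adjusted p of 0.267, and 21 were lower at an unadjusted p under 0.05 (5.23% of all genes). The 13 genes called without the 2 libraries and without the controls included the ion channel gene Trpm5 (-1.58, edgeR adjusted p = 0.0354). Among them were also the kinase gene Dclk1 (-1.63, edgeR adjusted p = 0.0405) and Alox5 (-2.30, edgeR adjusted p = 0.0103). Over all libraries the mean log2 level of the list was 0.287, -0.756 and -0.916 in HIF2α∆IEC, against 0.936, 0.333 and 0.117 in HIF1α∆IEC and 0.883, 0.197 and -0.311 in the controls, each from the mean of the 6 ∆IEC libraries. Control replicate 1 lay within the range of HIF1α∆IEC only, replicate 3 within that of HIF2α∆IEC only, and replicate 2 within both. The highest HIF2α∆IEC library on this list, replicate 1, overlapped the HIF1α∆IEC libraries and was also the one with high lymphocyte markers.

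**Figure D4:**
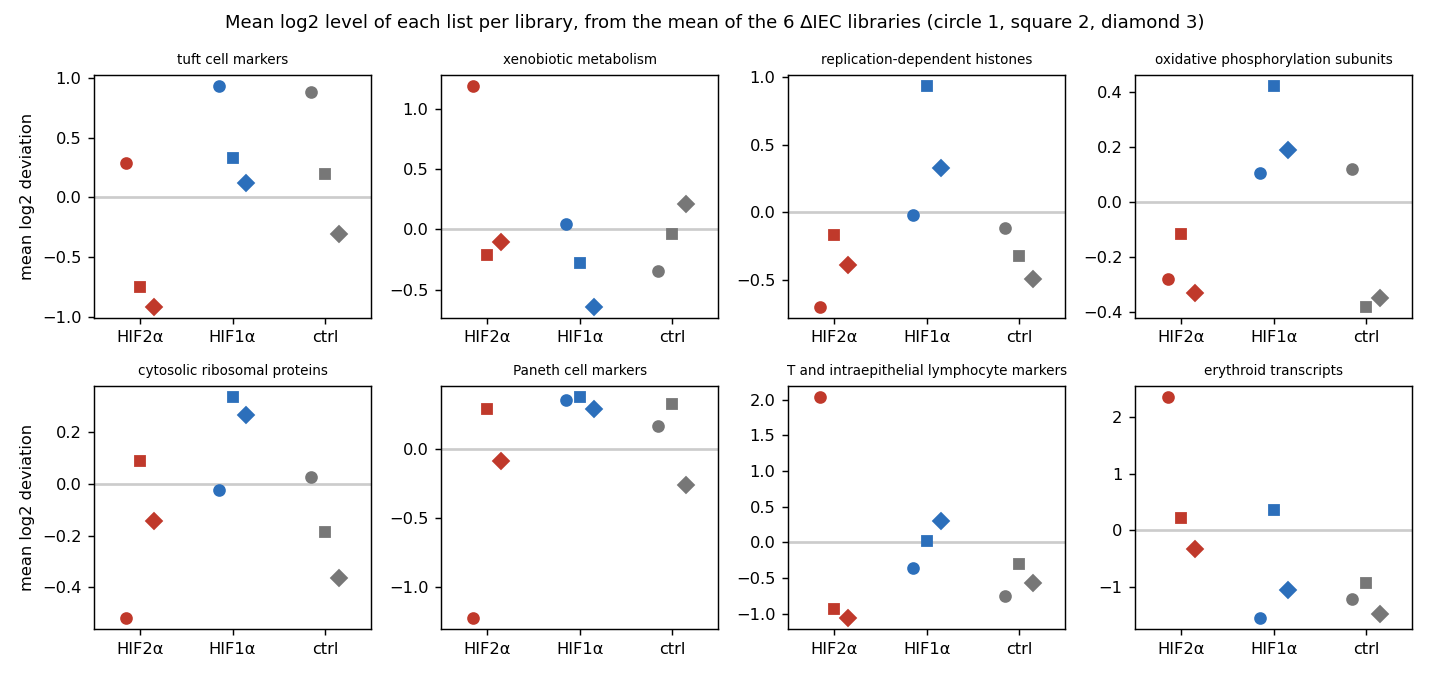
Mean log2 level of 8 gene lists in each library, as the deviation from the mean of the 6 ∆IEC libraries, with HIF2α∆IEC at left (red), HIF1α∆IEC in the middle (blue) and controls at right (grey). Tuft cell markers are lowest in HIF2α∆IEC replicates 2 and 3, at -0.756 and -0.916, and replicate 1 of HIF2α∆IEC stands apart for Paneth, lymphocyte, xenobiotic and erythroid genes.

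Transcripts of the respiratory chain, the ribosome and histones were also mostly lower in HIF2α∆IEC. Of 72 nuclear subunits of oxidative phosphorylation 69 were lower (median -0.51; 35 at an unadjusted p under 0.05, against 3.53% of all genes; groups not overlapping for 45, against 6.13%), and without the 2 libraries 61 were lower (median -0.37; 0 called). Cox6b1, of cytochrome c oxidase, had 367, 425 and 333 CPM in HIF2α∆IEC, against 590, 1068 and 658 in HIF1α∆IEC and 641, 354 and 351 in the controls (-1.04 ± 0.28; -0.67 without the 2 libraries). Of 79 cytosolic ribosomal protein genes 65 were lower (median -0.39; -0.20 without the 2 libraries). Rplp1, of the ribosomal stalk, had 764, 1262 and 958 CPM in HIF2α∆IEC, against 1619, 4540 and 2228 in HIF1α∆IEC (-1.49 ± 0.40; -0.95 without HIF1α∆IEC replicate 2). Replication-dependent histone transcripts, most of which lack a poly(A) tail, were lower for 39 of 39 members (median -1.48; 38 of 42 and -0.68 without the 2 libraries). Transcripts encoded in the mitochondrion were lower for 12 of 13 (median -0.44; -0.018 without HIF1α∆IEC replicate 2, and -1.13 without HIF2α∆IEC replicate 1). Without both libraries mt-Nd5 and mt-Nd6, of respiratory complex I, were called lower in HIF2α∆IEC at -1.07 and -0.93 (edgeR adjusted p = 0.00726 and 0.0313), though not with the controls in the fit. Gene length, as deposited, moved with these results: with the tested genes in 5 equal classes of length, 15.6% of the shortest, up to 1636 bases, were lower in HIF2α∆IEC without overlap, against 2.84% of the longest. The median length was 1400 bases in the oxidative phosphorylation list, 1498 in the ribosomal list and 477 in the histone list. It was 508 in the Paneth list. The lower secretory genes Defa-rs7, Spink4, Clps, Retnlb and Ang4, at 377, 477, 550, 695 and 709 bases, were also in the shortest class. The part of length in any of these results was not tested.

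Yam1, Lars2 and the short loci Gm23935 and Gm24270 were among the lower loci of smallest p. Yam1 had 1449, 3625 and 2846 CPM in HIF2α∆IEC, against 8119, 18360 and 6631 in HIF1α∆IEC and 8813, 3986 and 2371 in the controls (-2.06 ± 0.47). It overlaps Rn18s-rs5, an 18S ribosomal RNA pseudogene, in RefSeq. Lars2, the mitochondrial leucyl-tRNA synthetase gene, had 217, 465 and 408 CPM in HIF2α∆IEC, against 1103, 1788 and 850 in HIF1α∆IEC and 1310, 543 and 365 in the controls (-1.78 ± 0.37). The short miRNA-annotated loci Gm23935, inside Zc3h7a, and Gm24270, inside Peak1, were at -1.90 ± 0.40 and -1.97 ± 0.37. The 6 ∆IEC libraries, though not the controls, had the same order in all of these loci, Lars2 included. Without the 2 libraries Yam1 was at -1.15, Lars2 at -1.12, Gm23935 at -1.22 and Gm24270 at -1.39, each called by edgeR (adjusted p = 0.00726, 0.0169, 0.00726 and 0.0296), and none with the controls in the fit (adjusted p = 0.484, 0.488, 0.438 and 0.367). In all 4, control replicate 1 lay within the range of HIF1α∆IEC. For Yam1 and the short loci, reads of the overlapping gene cannot be told apart from those of the locus here. An alternative fit left out all 4, Lars2 included, as loci related to ribosomal RNA. The part of such RNA in their counts was not tested. Of the remaining leading lower genes, Hipk2, a stress-responsive kinase, had 12.2, 14.2 and 15.1 CPM in HIF2α∆IEC, against 35.5, 53.2 and 38.4 in HIF1α∆IEC and 43.4, 16.6 and 19.96 in the controls (-1.61 ± 0.28, edgeR adjusted p = 0.678; DESeq2 adjusted p = 0.000286). St3gal4, a sialyltransferase, was at -1.28 ± 0.27, S100a1, a calcium-binding protein gene, at -1.28 ± 0.30 and Snrnp25, of the minor spliceosome, at -1.13 ± 0.26. Among loci with clone-style or pseudogene names, Tma7-ps was at 1.75 ± 0.31, RP23-456B9.24 at 2.89 ± 0.54, Gm21967 at 1.64 ± 0.41 and Gm6472 at -1.47 ± 0.28.

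The controls were not all on one side of these differences. Of the 644 genes with an unadjusted p under 0.05 and no overlap, the 3 controls reached into or beyond both genotypes for 402 (62.4%). They were all at or above the upper genotype's lowest library for 26 genes and all at or below the lower genotype's highest library for 34. Control replicate 1 lay at the level of HIF1α∆IEC or beyond for 457 of the 644 genes and at that of HIF2α∆IEC or beyond for 55. Control replicate 2 lay with HIF2α∆IEC for 472 and with HIF1α∆IEC for 74, and control replicate 3 with HIF2α∆IEC for 508 and with HIF1α∆IEC for 49. All 3 controls are of 1 genotype label, so for most of these genes the gap between the ∆IEC genotypes lay within the range of the controls. Narf and Ankrd37, with the controls at the level of HIF2α∆IEC, and Pxdn, with the controls at the level of HIF1α∆IEC, are exceptions.

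Leaving out the 2 libraries brought up a further set of genes, named here after their values were seen. With the controls in the fit none was called, the adjusted p being 0.267 for S100g, 0.25 for Pdx1, 0.339 for Trpv6 and 0.314 for Slc2a5. S100g, the vitamin D-dependent calcium-binding protein calbindin-D9k, had 245, 9.64 and 4.61 CPM in HIF2α∆IEC, against 212, 134 and 124 in HIF1α∆IEC and 185, 14.9 and 119 in the controls. Its log2 fold change was -0.86 ± 1.14 over 6 libraries and -4.53 ± 0.35 without the 2 (edgeR adjusted p = 5.96e-05; 0.0250 without HIF2α∆IEC replicate 1 alone). Akp3, an intestinal alkaline phosphatase, had 887, 7.46 and 1.75 CPM in HIF2α∆IEC, against 446, 114 and 207 in HIF1α∆IEC (0.22 ± 1.58 over 6 libraries and -6.14 ± 0.55 without the 2, edgeR adjusted p = 0.000113). The apical calcium channel gene Trpv6, the duodenal factor gene Pdx1 and the fructose transporter gene Slc2a5 were at -4.87, -3.97 and -1.46 without the 2 libraries, and at -0.20, -1.41 and -0.23 with them (edgeR adjusted p = 0.00144, 0.00226 and 0.00485 without them). Fabp6, the ileal bile acid-binding protein, was called in the other direction, at 0.96 (edgeR adjusted p = 0.0323). For S100g, Akp3 and Trpv6 the first HIF2α∆IEC library was the highest of the 6, and the other 2 HIF2α∆IEC libraries were the lowest. The lists of proximal and distal segment genes were 6 higher and 13 lower (median -0.22) and 10 higher and 12 lower (median -0.099) without the 2 libraries. Part of the intestine is not in the labels, so a difference in the stretch sampled was not tested.

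**Figure D5:**
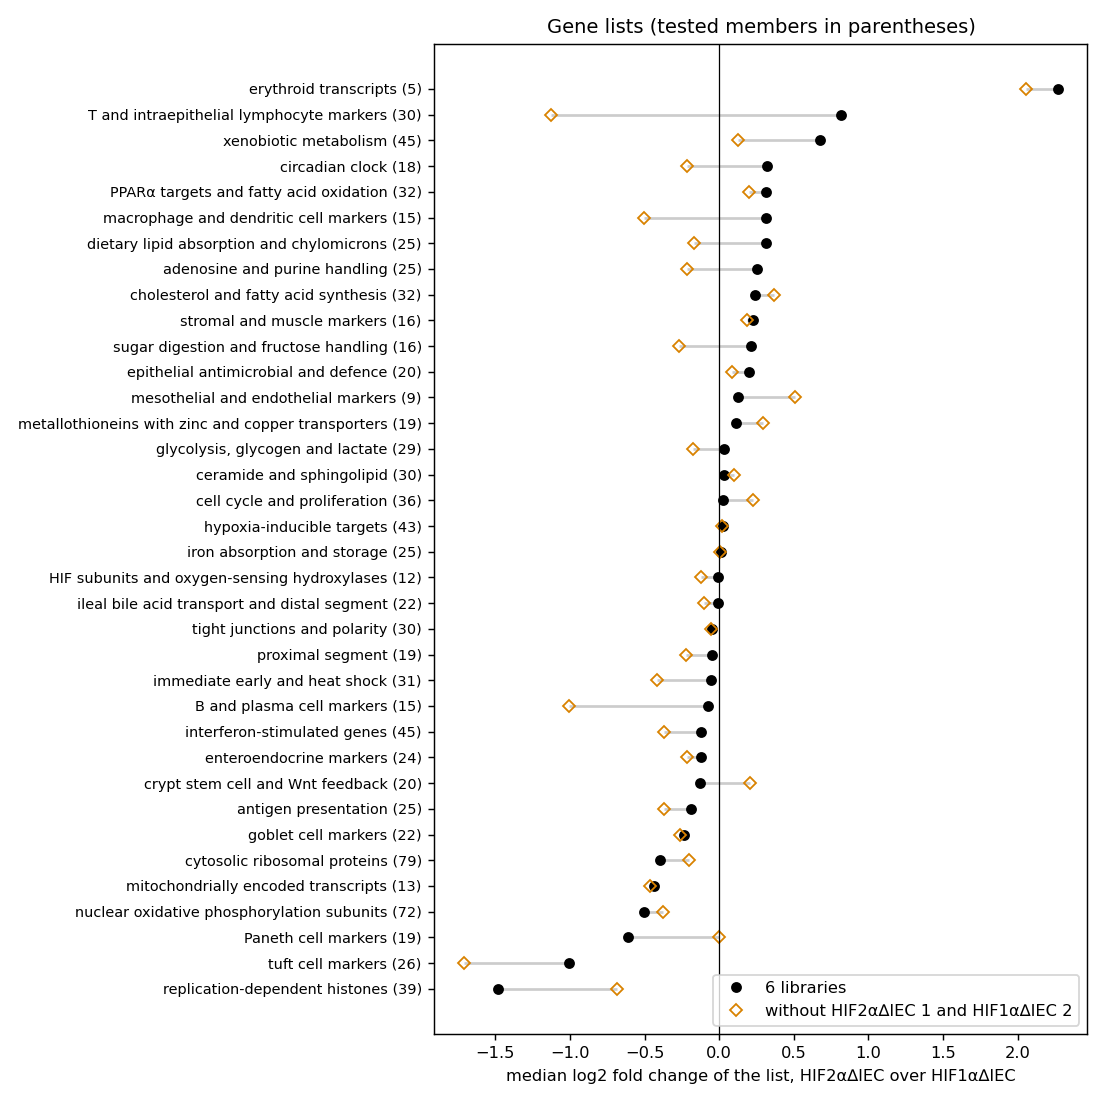
Median log2 fold change of HIF2α∆IEC over HIF1α∆IEC for 36 gene lists, with the number of tested members in parentheses; filled circles are all 6 libraries and open diamonds the 4 left without HIF2α∆IEC replicate 1 and HIF1α∆IEC replicate 2. Tuft cell genes stay below 0, at -1.01 and -1.71, while lymphocyte markers move between 0.82 and -1.13.

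Lymphocyte genes showed how far 1 library set a difference. Of 30 T and intraepithelial lymphocyte markers 28 were higher in HIF2α∆IEC (median 0.82), but without the 2 libraries 28 of 29 were lower (median -1.13). The summed level was 4382, 435 and 423 CPM in HIF2α∆IEC, against 715, 881 and 1246 in HIF1α∆IEC and 579, 754.5 and 614 in the controls. The first HIF2α∆IEC library was the highest and the other 2 were the lowest of all 9. Without the 2 libraries 6 members fell in HIF2α∆IEC, among them Cd7 (-1.52, adjusted p = 0.0276) and Ccl5 (-1.37, adjusted p = 0.0342), both from edgeR, against 0.583% of all genes called lower. With the controls in the fit edgeR called 0 members, 22 being lower at an unadjusted p under 0.05, and the smallest adjusted p was 0.267. Members of both the tuft and the lymphocyte list thus fell in the comparison of the same 4 libraries. The part of one in the other was not tested. Of the tuft list, Ptpn6, Fyb and Alox5 are among those also expressed by blood cells. Erythroid genes were higher for 5 of 5 in HIF2α∆IEC (median 2.27), with a summed level of 117, 18.5 and 12.9 CPM in HIF2α∆IEC, against 2.53, 23.2 and 5.94 in HIF1α∆IEC.

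Other epithelial lists gave medians near 0 or turned with the 2 libraries. Sugar digestion and fructose genes were 11 higher and 5 lower in HIF2α∆IEC (median 0.21; 3, 13 and -0.27 without the 2 libraries), and circadian clock genes 15 higher and 3 lower (median 0.32; -0.21 without them). Dbp, a clock output factor, had 66.7, 2.71 and 0.95 CPM in HIF2α∆IEC, against 21.3, 10.7 and 16.3 in HIF1α∆IEC. Tight junction and polarity genes were 10 higher and 20 lower (median -0.046), with Crb3, of the apical Crumbs complex, at -0.85 ± 0.24 and the scaffold gene Tjp1 at -0.999 ± 0.37 (-0.56 without HIF1α∆IEC replicate 2 and -0.62 without both). Cldn2 and Cldn15, claudins that form paracellular cation pores, were at 0.37 ± 0.31 and -0.24 ± 0.25 with overlapping groups. Crypt stem cell genes were 7 higher and 13 lower (median -0.13, or 0.21 without the 2 libraries). Enteroendocrine genes were 10 higher and 14 lower (median -0.12, or -0.22 without them). At an unadjusted edgeR p under 0.05, 4 were lower and 1 higher, against 3.53% and 1.7% of all genes. The summed enteroendocrine level did not overlap, at 642, 614.5 and 536 CPM in HIF2α∆IEC, against 804, 834 and 882 in HIF1α∆IEC. It was 882, 685 and 643 CPM in the controls.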

How the data were processed

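RNA of small intestine epithelial cells was sequenced after an Illumina TruSeq preparation, per the labels' protocols. The authors deposited raw counts of 43629 genes in 9 libraries, with gene coordinates and lengths. Per the submitters' processing notes, CASAVA and Bowtie 0.12.2 were used with mm10. How reads were assigned to genes, with which annotation and whether by strand, is not given in the sources used here. Overlapping, antisense and near-identical genes are therefore uncertain.

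Deposited counts of the 6 ∆IEC libraries were fitted in R 4.3.3 with edgeR 4.0.16 (filterByExpr, TMM, quasi-likelihood F test by genotype, two-sided, 4 residual degrees of freedom, Benjamini-Hochberg over all 15135 genes tested, called under 0.05). The common BCV, the biological coefficient of variation, was 0.388. Errors of fold changes are SEs. Control levels use the same scale. Between libraries of 1 genotype the chi-square divided by the number of genes was 55.8 or more, so none was taken for a duplicate. DESeq2 1.42.0, limma-voom and limma-voom with quality weights (limma 3.58.1), other scalings and filters, all 9 libraries, a sex term, a replicate block, glmTreat against a fold of 1.2, and leaving out libraries were alternatives. The fits were tested on simulated counts.

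Members and gene lists were chosen with earlier results of these data known; lists therefore get counts and medians and no test. Named genes are Hif1a, Epas1 and Arnt; the 12 genes per direction of smallest p with a mean CPM of at least 1 and no overlap, with up to 3 locus-style names apart; the 4 per direction at a mean CPM of at least 100; for each described list, up to 4 members by p and some fixed ones; and up to 10 genes called by another tool. Genes named outside the rule are said to be so or serve as list examples chosen after their values were seen (Cyp3a11, Gsta1, Mt3, Ppara, Gpr22, Lamb1, Dus4l, Sh3yl1, Tmem18). Promoters are from RefSeq, GRCm38.p6.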

Additional observations from a re-analysis of the deposited data

How the results depend on the processing

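The count of 0 called genes stayed 0 under RLE and upper-quartile scaling, limma-voom, a CPM of at least 1 in 3 libraries, all 9 libraries, glmTreat, and without mitochondrial and erythroid genes. It became 29 with DESeq2, 4 without a count filter, 2371 with limma-voom quality weights (0.229 for HIF1α∆IEC replicate 2, 4.97 for HIF2α∆IEC replicate 3) and 124 without both libraries that stood apart. Single libraries left out gave 0 to 2 calls: S100g and Pxdn without HIF2α∆IEC replicate 1, Defa-rs7 without HIF1α∆IEC replicate 1. A further pair of alternatives was chosen after seeing the data: all 9 libraries less the 2 that stood apart, which ended all 124 calls, and Yam1, Gm23935, Gm24270 and Lars2 left out; both called 0. Genes without overlap numbered 2204 to 4213 without single libraries, 6818 without both and 6944 in the 9-library fit without both; fewer samples overlap less by construction. With no count filter they were 2210, and the split turned to 1297 higher and 913 lower. The replicate numbers did not pair the samples (correlations of deviations for equal numbers -0.17, -0.392 and -0.0605); a replicate block gave 1 call, Defa-rs7, and so did a sex term. Of 102 named fold changes, 36 moved by over 1.5 times or turned without some single library, 20 without HIF2α∆IEC replicate 1 and 20 without HIF1α∆IEC replicate 2. Without single libraries, the ones that turned ran from -0.202 to 2.34 (Cd244), -0.0275 to 0.559 (Cldn2), -3.14 to 1.11 (Dbp), -1.04 to 0.0335 (Epas1), -0.908 to 0.249 (Hif1a), -0.345 to 2.53 (Klrd1), -0.467 to 0.0146 (Ldha), -0.226 to 0.169 (Slc11a2), -1.23 to 0.129 (Slc2a5), -1.64 to 0.371 (Slc40a1) and -4.42 to 0.392 (Trpv6). Dbp was 0.54 with 6 libraries, -1.58 with limma-voom, -3.73 with quality weights, -1.59 with the replicate block and with a sex term, and -3.34 without both libraries, in the fit of 4 and of 7. Klrd1 was -0.0862 with quality weights, -0.228 without both and -0.229 in the fit of 7; Slc11a2 was -0.175, -0.188 and -0.189 in the same order, and Hif1a 0.109 with quality weights. The cause of these moves was not tested.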
